A study of Mus musculus with 7 samples.

Results

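The Bcl2 family decides, at the outer membrane of the mitochondrion, whether a cell under stress lives or dies. Survival proteins (Bcl2, Mcl1 and the long product of Bcl2l1) hold the pore-forming effectors Bax and Bak1 in check, and BH3-only proteins (encoded by Bcl2l11, Bid, Bad, Bbc3 and Pmaip1) bind the survival proteins or the effectors and tip the balance towards release of cytochrome c. In blood formation Mcl1 is known to be needed for the survival of hematopoietic stem cells (HSCs) in mice, and forced expression of Bcl2 enlarges the mouse HSC pool. These 10 genes were taken by symbol from a table of 23284 genes and were all found there. All 10 also passed the filter on low counts, as 10 of 12917 genes tested.

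The libraries came from HSCs sorted from bone marrow of C57BL/6 mice by the brightness of a green fluorescent protein (GFP) under control of Hdc, the gene for histidine decarboxylase, which makes histamine. The Hdc-GFPhi fraction gave 3 libraries and the Hdc-GFPlo fraction 4, each from 500 cells, and in replicate 4 of Hdc-GFPlo the sorted fraction is labelled Hdc-GFP-. The age and sex of the mice and the surface markers that defined the HSC gate are not given in the labels used here, and the labels do not say whether each replicate came from its own animals, so the p-values reflect only how these samples vary, and that variation may be technical. Total counts were 19606124 to 23688672 per library. Levels below are normalised read counts in CPM, the usual count per unit of library size, with TMM factors, so a lower level can mean fewer cells with the transcript or less RNA per cell, which cannot be told apart. Differences were tested with edgeR's quasi-likelihood test and adjusted for all genes tested, with 0.05 as the threshold.

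Every member was detected, and none of the 10 passed the test. Among all genes none passed (0 called, 0% of those tested, smallest adjusted p = 0.211), 1579 had an unadjusted p under 0.05, and DESeq2 called 344 genes, of which 0 were members, with no adjusted p from DESeq2 for Bak1, Bbc3 and Pmaip1. Before adjustment 2 of the 10 members, Bax and Bad, had a p under 0.05 with higher values in Hdc-GFPhi, against 4.92% of all genes tested, and 0 had one with lower values, against 7.31%. These are also the 2 members for which every Hdc-GFPhi library lay above every Hdc-GFPlo library, an ordering shown by 6.02% of all genes tested. The reverse ordering, shown by 5.87% of genes, occurred in 0 members. The median log2 fold change of the members was 0.13, beside 0.01 for all genes tested.

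The promoters of Bax and Bad are printed because these members were the ones whose groups did not overlap. Each sequence is the 250 bases before the RefSeq start of the gene, with no annotated exon in it, in build GRCm38.p6, read 5′ to 3′ on the gene's strand. The Bax window is chr7:45466899-45467148 on the minus strand, and that of Bad is chr19:6941611-6941860 on the plus strand, before the first of 2 annotated starts. Capitals mark matches to the motifs searched on both strands. These were the GC box GGGCGG, the E-box CACGTG, the CCAAT box, the TATA box TATAAA, the cAMP response element TGACGTCA and the p53 decamer. The decamer, searched as a single copy of 10 bases, is only part of the element bound by the tumour suppressor p53. Overlapping matches were merged in capitals.
Bax: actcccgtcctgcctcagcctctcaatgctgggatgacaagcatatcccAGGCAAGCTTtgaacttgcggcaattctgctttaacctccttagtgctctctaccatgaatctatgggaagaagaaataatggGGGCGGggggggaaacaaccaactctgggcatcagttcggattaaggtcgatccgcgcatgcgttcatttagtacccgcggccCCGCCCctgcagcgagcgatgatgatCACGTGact
Bad: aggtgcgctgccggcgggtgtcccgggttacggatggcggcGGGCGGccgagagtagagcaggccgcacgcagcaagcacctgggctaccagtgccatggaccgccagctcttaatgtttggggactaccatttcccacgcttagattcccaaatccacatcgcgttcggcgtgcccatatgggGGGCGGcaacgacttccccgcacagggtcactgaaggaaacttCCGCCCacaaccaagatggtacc
In the Bax window the p53 decamer begins 201 bases before the start, GC boxes begin 118 and 35 bases before it, and an E-box begins 9 bases before it. The Bad window holds 3 GC boxes, which begin 209, 66 and 23 bases before the start. A GC box occurs in 32.7% of 32851 RefSeq promoter windows of this length, an E-box of these letters in 6.02% and a p53 decamer in 7.13%. Among 15 windows of 9 members, 10 hold a GC box, 2 hold the E-box (Bax and one of the 3 starts of Bbc3), and 1 holds the p53 decamer (Bax). The CCAAT box is in 4 of the 15, against 33.8% of all windows. The TATA box (12.4% of all windows) and the cAMP response element (1.55%) are in 0 of the 15. Member windows with a GC box were 54.0% (Bax) to 81.6% (a start of Bbc3) G or C, against a median of 52.4% for all windows. Several windows belong to the same gene, and 2 of those of Bbc3 overlap, so they are not independent. A match is a description of the letters only.

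Transcript levels within the family spanned a wide range when counts were divided by the merged exon length of each gene. Mcl1 was highest in every library, at 102.97 ± 12.6 CPM per kilobase over the 7 libraries (SD). Bax followed at 62.8 ± 9.21 and Bid at 45.6 ± 4.72 CPM per kilobase, and neither range touched that of its neighbours in the order. Bcl2l1 (16.1 ± 2.92), Bad (13.7 ± 1.95) and Bcl2 (12.1 ± 1.93 CPM per kilobase) formed a middle group whose ranges overlapped, with Bcl2l1 above Bad in 6 of 7 libraries and Bad above Bcl2 in 5 of 7. Bbc3 (4.10 ± 1.11) and Bcl2l11 (2.55 ± 0.52) lay lower and overlapped each other. Bak1 (0.66 ± 0.12) and Pmaip1 (0.37 ± 0.30 CPM per kilobase) were lowest and overlapped too. The lengths, 867 bases for Bax to 9157 for Bcl2, come from a GENCODE annotation of GRCm38, while reads were counted on mm9 with an annotation not given in the sources used here, so the order of close neighbours depends on transcript ends that may differ.

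**Figure D1:**
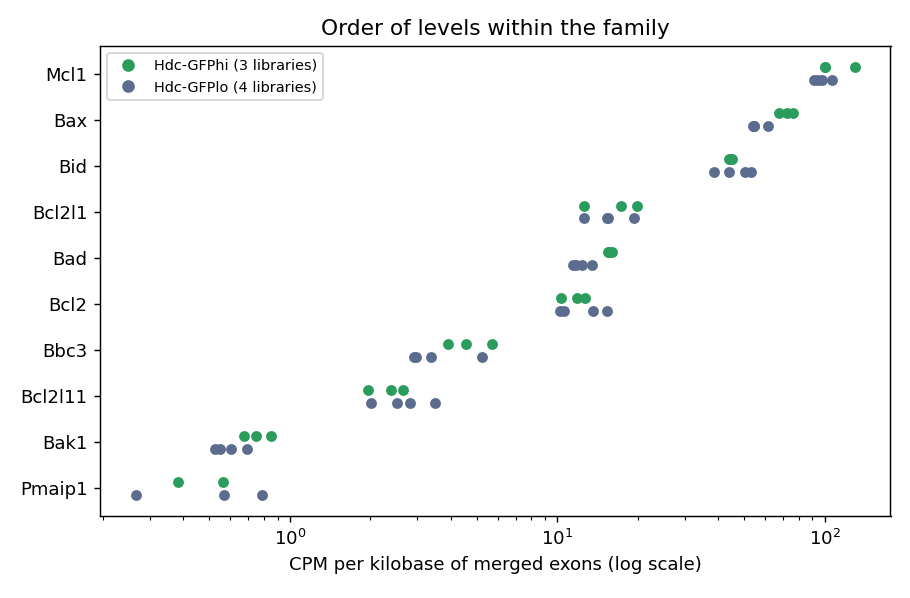
CPM per kilobase of merged exons (x axis, log scale) of the 10 genes, ordered by their mean, with 1 point per library (green, Hdc-GFPhi, n = 3; blue-grey, Hdc-GFPlo, n = 4). Mcl1 is highest in all 7 libraries, and the libraries in which Pmaip1 had no count are not drawn.

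Among the survival genes, Bcl2 overlapped widely between the fractions. It was measured at 117, 94.5 and 109 CPM in Hdc-GFPhi replicates 1 to 3 and at 124, 94.2, 97.1 and 141 CPM in replicates 1 to 4 of Hdc-GFPlo. These ranges overlapped, and the highest value belonged to the library labelled Hdc-GFP-. The log2 fold change was -0.10 (SE 0.15, 95% interval -0.45 to 0.25, edgeR adjusted p = 0.840). In these libraries that interval corresponds to a ratio of Hdc-GFPhi to Hdc-GFPlo of 0.73 to 1.19. The longest overlap of a Bcl2 exon with an exon of D630008O14Rik, on the opposite strand, is 497 bases. The sign of the change turned (0.02) without Hdc-GFPlo replicate 4.

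Mcl1, whose short-lived protein has to be made continuously, was the most abundant member. It was measured at 442, 342 and 344 CPM in Hdc-GFPhi and at 313, 335, 324 and 364 CPM in Hdc-GFPlo. Hdc-GFPhi replicate 1 stood above all other libraries, and the remaining Hdc-GFPhi libraries lay below Hdc-GFPlo replicate 4. The log2 fold change was 0.17 (SE 0.11, interval -0.07 to 0.41, edgeR adjusted p = 0.555), and it was 0.04 without Hdc-GFPhi replicate 1. Immediate early genes that cell dissociation also induces (Fos, Jun, Egr1 and others) moved with this library: all 10 genes of that list were higher in Hdc-GFPhi, and their summed level was 9813 CPM in Hdc-GFPhi replicate 1 against 1515 to 3417 CPM elsewhere. The 2 libraries with the highest sums, Hdc-GFPhi replicate 1 and Hdc-GFPlo replicate 4, were also the 2 with the most Mcl1. This was not particular to Mcl1. The same 2 libraries had the most Bcl2l1 (77.1 and 75.0 CPM) and Bbc3 (10.4 and 9.52 CPM), and only they had 0 reads of Pmaip1. The remaining members did not have their 2 highest values there. The part of that list in the values of Mcl1, Bcl2l1, Bbc3 and Pmaip1 was not tested.

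**Figure D2:**
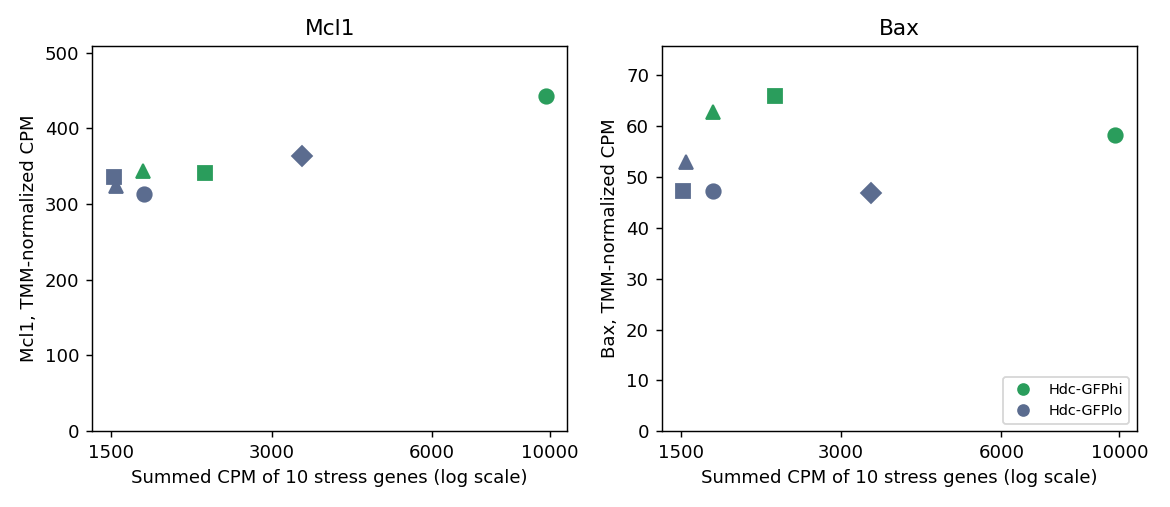
Level of Mcl1 (left) and Bax (right) in CPM against the summed CPM of 10 immediate early and dissociation stress genes (x axis, log scale), 1 point per library (green, Hdc-GFPhi; blue-grey, Hdc-GFPlo; circle, square, triangle and diamond for replicates 1 to 4). Hdc-GFPhi replicate 1, at 9813 CPM of stress genes, has the highest Mcl1 (442 CPM) and the lowest Bax of its group (58.3 CPM).

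Bcl2l1 was measured at 77.1, 49.0 and 67.4 CPM in Hdc-GFPhi and at 49.0, 60.1, 59.7 and 75.0 CPM in Hdc-GFPlo. The lowest library of each group had nearly the same level, and the groups overlapped over almost their whole range. The log2 fold change was 0.08 (SE 0.19, interval -0.34 to 0.50, edgeR adjusted p = 0.897), and its sign turned without Hdc-GFPhi replicate 1 (-0.07) or Hdc-GFPlo replicate 1 (-0.01). Bcl2l1 gives a long survival isoform and a short one that promotes death, and Mcl1 is spliced in a similar way, and gene counts do not separate these isoforms.

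The effector gene Bax had the smallest p of the family. Its levels were 58.3, 65.9 and 62.8 CPM in Hdc-GFPhi and 47.2, 47.2, 53.0 and 46.8 CPM in Hdc-GFPlo, from 1319, 1585 and 1325 counts against 975, 886, 1188 and 968. The lowest Hdc-GFPhi library was above the highest Hdc-GFPlo library. The longest overlap of a Bax exon with an exon of Gm45808, on the same strand, is 140 bases, and reads there cannot be told apart. The mean was 28.4% higher in Hdc-GFPhi (62.4 ± 3.80 against 48.6 ± 2.99 CPM, SD, n = 3 and 4). The log2 fold change was 0.36 (SE 0.11, interval 0.11 to 0.62), with an unadjusted p of 0.0105, and the gene ranked 450 of 12917 by p, so that its edgeR adjusted p was 0.300. DESeq2 gave an adjusted p of 0.0901. Leaving out each library in turn gave log2 fold changes of 0.32 to 0.41, and 0.38 was found without both Hdc-GFPhi replicate 1 and Hdc-GFPlo replicate 4.

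Bak1, the other effector, was counted only 27 to 46 times per library, or 1.25 to 2.03 CPM. The mean was 1.81 ± 0.21 CPM in Hdc-GFPhi and 1.41 ± 0.18 CPM in Hdc-GFPlo, and the groups overlapped by 1 library on each side. Its log2 fold change of 0.36 had nearly the size of that of Bax, but the interval ran from -1.0 to 1.72 (SE 0.61, edgeR adjusted p = 0.854). With an interval this wide, a difference of the size measured for Bax could not be told from 0 for Bak1. The longest overlap of a Bak1 exon with an exon of Ggnbp1, on the opposite strand, is 177 bases. The library kit does not mark strand, so reads there cannot be assigned to a gene by strand.

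Among the BH3-only genes, Bad, whose product is disarmed by phosphorylation when growth factors are present, was higher in Hdc-GFPhi by the same measure as Bax. Levels were 38.4, 36.9 and 37.3 CPM in Hdc-GFPhi and 29.7, 28.1, 27.4 and 32.3 CPM in Hdc-GFPlo. All 3 Hdc-GFPhi libraries were above the 4 Hdc-GFPlo libraries. The mean was 27.9% higher (37.5 ± 0.76 against 29.4 ± 2.17 CPM, SD), with a log2 fold change of 0.36 (SE 0.13, interval 0.06 to 0.65), an unadjusted p of 0.0244 and an edgeR adjusted p of 0.336. The range without 1 library was 0.32 to 0.40, and DESeq2 gave an adjusted p of 0.178. The longest overlap of a Bad exon with an exon of Gpr137, on the opposite strand, is 517 bases, with the same limit as for Bak1.

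Bbc3 encodes Puma, a p53-induced killer that binds every survival protein. It was measured at 10.4, 7.07 and 8.30 CPM in Hdc-GFPhi and at 5.38, 5.27, 6.12 and 9.52 CPM in Hdc-GFPlo. The value of Hdc-GFPlo replicate 4 fell within the Hdc-GFPhi range, and the other 3 of its group lay below that range. The log2 fold change was 0.38 (SE 0.32, interval -0.33 to 1.10, edgeR adjusted p = 0.662). It was 0.62 without Hdc-GFPlo replicate 4 and 0.23 without Hdc-GFPhi replicate 1, so its size depended on these libraries.

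Bid, which caspase-8 cuts to carry a death receptor signal to the mitochondrion, was the steadiest member. Its levels were 97.8, 96.5 and 98.4 CPM in Hdc-GFPhi and 95.9, 84.3, 116 and 110.5 CPM in Hdc-GFPlo. The Hdc-GFPhi libraries fell inside the spread of Hdc-GFPlo. Over the 7 libraries its coefficient of variation was 10.3%, the lowest of the 10, and its log2 fold change was -0.06 (SE 0.12, interval -0.33 to 0.21, edgeR adjusted p = 0.880). In these libraries that interval corresponds to a ratio of Hdc-GFPhi to Hdc-GFPlo of 0.80 to 1.16.

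Bcl2l11 encodes Bim, which is induced when cytokines are withdrawn. Levels were 13.5, 18.2 and 16.5 CPM in Hdc-GFPhi and 13.9, 17.4, 24.1 and 19.4 CPM in Hdc-GFPlo. The groups overlapped, with the highest value in Hdc-GFPlo replicate 3, and the log2 fold change of -0.22 (SE 0.23, interval -0.73 to 0.29, edgeR adjusted p = 0.741) was -0.07 without that library and -0.34 without Hdc-GFPlo replicate 1.

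Pmaip1 encodes Noxa, a BH3-only protein that binds Mcl1. The 3 Hdc-GFPhi libraries held 0, 37 and 22 reads of it, and the 4 Hdc-GFPlo libraries 15, 29, 48 and 0. It was the only member with a library at 0, and these were Hdc-GFPhi replicate 1 and Hdc-GFPlo replicate 4, in which a count of 0 allows up to 0.133 and 0.145 CPM. The remaining libraries were at 1.04 and 1.54 CPM in Hdc-GFPhi and at 0.73 to 2.14 CPM in Hdc-GFPlo. No difference was detectable with counts this low and this variable between libraries (log2 fold change -0.36, SE 1.52, edgeR adjusted p = 0.945). The sign turned without Hdc-GFPhi replicate 1 (0.23) or Hdc-GFPlo replicate 3 (0.19).

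**Figure D3:**
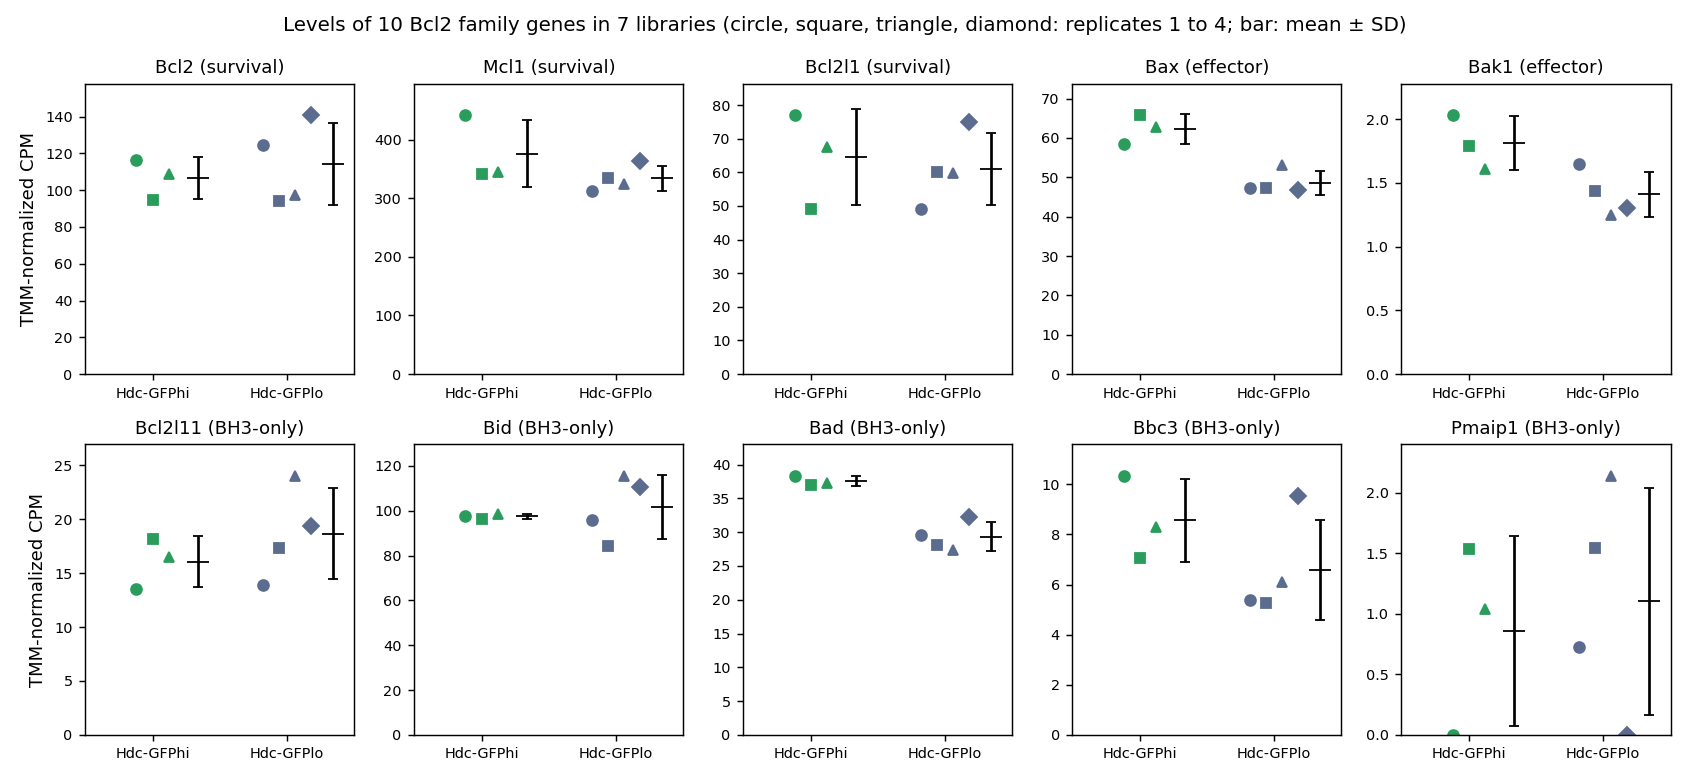
Level of each member in CPM (y axis from 0) in the 3 Hdc-GFPhi libraries (green) and the 4 Hdc-GFPlo libraries (blue-grey), with markers for replicates 1 to 4 and the mean ± SD beside them. Only for Bax (58.3 to 65.9 against 46.8 to 53.0 CPM) and Bad (36.9 to 38.4 against 27.4 to 32.3 CPM) do the groups not overlap.

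Ratios between members within a library do not depend on how libraries are scaled. Of 11 ratios of read counts computed, 3 did not overlap between the groups. The ratio of Bad to Bcl2 was 0.33, 0.39 and 0.34 in Hdc-GFPhi and 0.24, 0.30, 0.28 and 0.23 in Hdc-GFPlo. The ratio of Bbc3 to Bcl2 was 0.089, 0.075 and 0.076 in Hdc-GFPhi against 0.043, 0.056, 0.063 and 0.067 in Hdc-GFPlo. For both, every Hdc-GFPhi library was above every Hdc-GFPlo library, which holds for the ratio to Bcl2 of 5.19% of all genes. For Bbc3 the groups overlapped in CPM but not in this ratio, with Hdc-GFPlo replicate 4 high in both Bbc3 and Bcl2. The ratio of Bid to Bax was lower in Hdc-GFPhi (1.57 ± 0.11 against 2.09 ± 0.24), as was the ratio to Bax of 34.1% of all genes, since Bax itself was higher there.

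The ratio of Bax to Bcl2, often used as a measure of readiness for apoptosis, was 0.50, 0.70 and 0.58 in Hdc-GFPhi and 0.38, 0.50, 0.55 and 0.33 in Hdc-GFPlo. The groups overlapped in it, through Hdc-GFPhi replicate 1 and Hdc-GFPlo replicates 2 and 3. Mcl1 exceeded Bcl2 by 3.52 ± 0.33 times in Hdc-GFPhi and by 3.00 ± 0.53 times in Hdc-GFPlo, in counts not divided by length. Per kilobase, the summed survival genes stood to the summed effectors as 2.38, 1.60 and 1.78 in Hdc-GFPhi and as 2.13, 2.25, 1.96 and 2.59 in Hdc-GFPlo. Both groups overlapped here as well, with Hdc-GFPhi replicate 1 among the Hdc-GFPlo libraries.

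**Figure D4:**
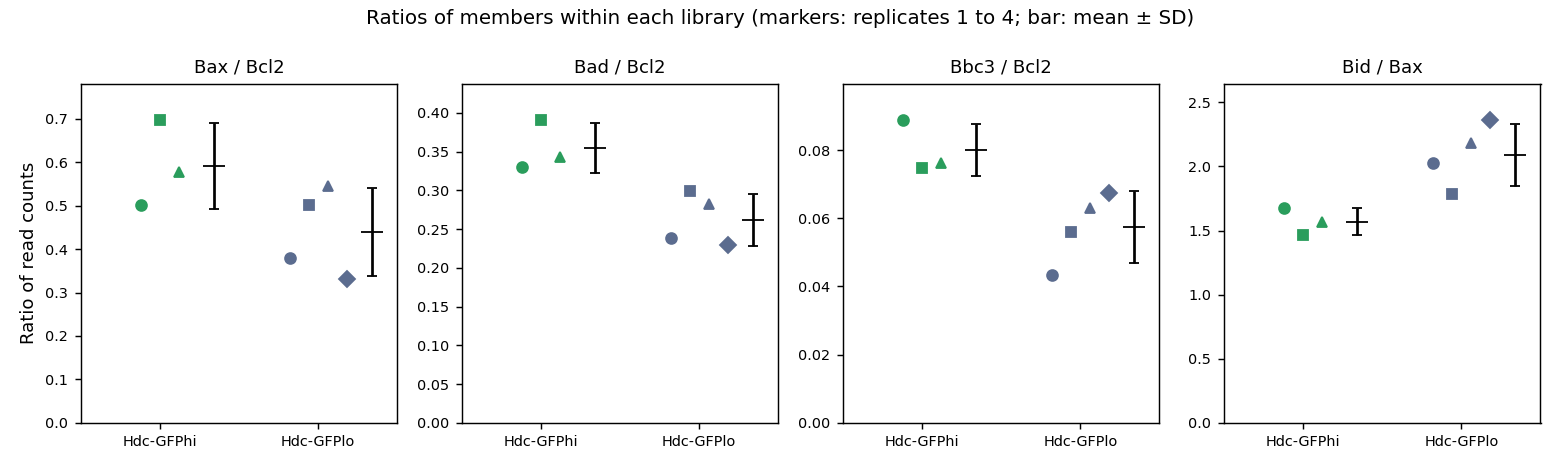
Ratios of read counts of 2 members in each library (y axes from 0; green, Hdc-GFPhi, n = 3; blue-grey, Hdc-GFPlo, n = 4; bars, mean ± SD). Bad to Bcl2 and Bbc3 to Bcl2 are higher in every Hdc-GFPhi library and Bid to Bax is lower in every one, while Bax to Bcl2 overlaps.

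Markers of HSCs and of other blood cells were compared with these values, although such libraries do not show which cells carried a transcript. Of 10 HSC markers all were detected, and their summed level was lower in every Hdc-GFPhi library (2692 to 3022 CPM) than in every Hdc-GFPlo library (3166 to 3425 CPM). Values were lower in Hdc-GFPhi for 6 of the 10 and higher for 4, with no overlap for Kit, Mecom and Hlf (lower) and for Ctnnal1 (higher). Among all genes tested, 5.87% were lower and 6.02% higher without overlap. Most of the gap in the sum came from Kit, the stem cell factor receptor, at 1198 ± 179.5 against 1590.3 ± 81.3 CPM (log2 fold change -0.41, SE 0.10, adjusted p = 0.231 by edgeR and 0.00789 by DESeq2). All 10 neutrophil markers had higher values in Hdc-GFPhi, with sums of 5923 to 8249 CPM against 2794 to 6832 CPM, and Mmp8 was at 0 in Hdc-GFPlo replicate 4. All 6 megakaryocyte markers had higher values too (793 to 1062 against 502 to 835 CPM), and all 6 myeloid progenitor markers (428 to 2667 against 139 to 1446 CPM), with Elane and Ctsg at 0 in Hdc-GFPlo replicate 4. Erythroid markers summed to 38.3 to 154.6 against 35.2 to 96.3 CPM with Hba-a1 and Hbb-b1 listed at 0 throughout, lymphocyte markers to 14.8 to 36.7 against 0 to 11.3 CPM with Cd3e at 0, and eosinophil and mast cell markers to 13.6 to 615 against 16.4 to 31.8 CPM. The 615 CPM belonged to Hdc-GFPhi replicate 1 alone, with Prg2 at 519.8 CPM, and the other Hdc-GFPhi libraries were at 17.3 and 13.6 CPM. Likewise the 36.7 CPM of lymphocyte markers belonged to Hdc-GFPhi replicate 3, with Il2rb at 9.81, Ncr1 at 6.54 and Gzma at 3.27 CPM. Elsewhere these genes were at 0, apart from 1 read of Ncr1 in Hdc-GFPlo replicate 1. By library the neutrophil sums were 5923, 8249 and 6762 CPM in Hdc-GFPhi and 3338, 6832, 4280 and 2794 CPM in Hdc-GFPlo, and the groups overlapped through Hdc-GFPlo replicate 2. The megakaryocyte sums were 1062, 793 and 1044 CPM in Hdc-GFPhi and 552, 547, 502 and 835 CPM in Hdc-GFPlo, and the groups overlapped through Hdc-GFPlo replicate 4. Every Hdc-GFPhi library was above every Hdc-GFPlo library for 3 of 10 neutrophil, 1 of 6 megakaryocyte and 2 of 4 tested lymphocyte markers. This ordering was shown by 6.02% of all genes tested. The megakaryocyte marker was Pf4 (186 ± 48.1 against 87.0 ± 13.7 CPM, log2 fold change 1.09, SE 0.18, adjusted p = 0.211 by edgeR and 1.26e-05 by DESeq2). DESeq2 called 3 megakaryocyte, 2 neutrophil and 1 HSC marker, among 344 of 12917 genes. Itga2b, another megakaryocyte marker, was at 314 to 614 CPM over all libraries of both fractions. Whether the HSCs themselves carried the megakaryocyte transcripts was not tested. The part of any of these cells in the values of Bax and Bad was not tested either.

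No other relative of the family passed the test. Of 16 such genes 9 could be tested and 3 had no count (Bcl2a1c, Bcl2l10 and Hrk). Values were higher for 4 and lower for 5 (median log2 fold change -0.05), and 0 passed the test. Before adjustment 1 was lower at a p under 0.05, against 7.31% of all genes tested. That gene was Bnip3, a hypoxia-induced mitophagy receptor, with 33.6 ± 6.19 CPM in the bright and 44.8 ± 6.56 CPM in the dim fraction (log2 fold change -0.42, SE 0.17, edgeR adjusted p = 0.381). Bcl2l13, another mitophagy receptor, was at 96.5 ± 21.0 against 119 ± 3.61 CPM (-0.30, SE 0.14, adjusted p = 0.411; -0.16 without Hdc-GFPhi replicate 1 and -0.48 without Hdc-GFPhi replicate 3), and its relative Bnip3l, which clears mitochondria from maturing red cells, at 151 ± 21.5 against 144 ± 16.5 CPM (0.07, SE 0.13). Both Bnip3 and Bcl2l13 overlapped between the groups. The Bcl2a1 genes are near-identical copies, so their low counts (at most 46 per library, in Bcl2a1b) are uncertain.

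Downstream of the mitochondrial pore, no apoptosome or caspase gene passed the test. All 20 were tested, and 15 were below and 5 above 0 in log2 fold change (median -0.07). Before adjustment 2 were lower and 1 higher at a p under 0.05, against 7.31% and 4.92% of all genes tested. Birc5, which encodes survivin and also serves chromosome segregation in mitosis, was at 96.7 ± 9.70 against 128 ± 16.4 CPM (log2 fold change -0.40, SE 0.12, edgeR adjusted p = 0.292), with Hdc-GFPlo replicate 4 at 107.7 CPM just below Hdc-GFPhi replicate 3 at 107.9 CPM. Cycs, the gene for cytochrome c, had 72, 66 and 59 reads in the bright fraction and 94, 108, 188 and 168 in the dim one. Its groups did not overlap, with an ordering shown by 5.87% of all genes tested (2.91 ± 0.24 against 6.70 ± 1.86 CPM, log2 fold change -1.20, SE 0.38, edgeR adjusted p = 0.296). However, Cycs has many processed pseudogenes, and reads that match several copies may be left out or split, so these low counts are uncertain. Htra2, a mitochondrial protease released with cytochrome c, was at 46.7 ± 10.8 against 32.4 ± 6.56 CPM (0.53, SE 0.21, adjusted p = 0.363), and it was 0.33 without Hdc-GFPhi replicate 1. Its exons share bases with Aup1 and Loxl3 on the opposite strand.

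Among death receptor genes 6 of 13 tested were above and 7 below 0 in log2 fold change, with a median of -0.02, and none of the list passed. Tradd, the adaptor of the tumour necrosis factor receptor, had higher values in every Hdc-GFPhi library (44.4 ± 2.72 against 34.0 ± 2.57 CPM, log2 fold change 0.38, SE 0.13, edgeR adjusted p = 0.307) and was the 1 gene of the list under 0.05 before adjustment. Of all genes tested, 6.02% had that ordering and 4.92% were higher at that p. The receptor gene Tnfrsf1b (-0.21, SE 0.11) and Casp8, the protease that cuts Bid (-0.18, SE 0.10, and -0.12 without Hdc-GFPlo replicate 2), had lower mean values with overlapping groups.

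Of the transcriptional regulators of BH3-only genes, 7 of 8 tested had higher values (median log2 fold change 0.14) and 0 passed. Before adjustment 1 was higher at a p under 0.05, against 4.92% of all genes tested. This was Ddit3, which encodes the stress factor Chop, at 27.4, 19.6 and 18.0 CPM in Hdc-GFPhi and 15.2, 16.6, 14.1 and 16.7 CPM in Hdc-GFPlo. Its groups did not overlap (log2 fold change 0.47, SE 0.20, edgeR adjusted p = 0.392), and the value was 0.27 without Hdc-GFPhi replicate 1, the library with the most stress gene transcript. Atf4, the stress factor upstream of Ddit3, followed the same library (189, 132 and 95.3 against 99.2 to 108 CPM; 0.41, SE 0.19, and 0.13 without Hdc-GFPhi replicate 1). Trp53, the gene for p53, which activates Bax, Bbc3 and Pmaip1, was at 244 ± 9.65 against 223 ± 8.43 CPM (0.12, SE 0.08, edgeR adjusted p = 0.546). Its groups missed each other only narrowly, with Hdc-GFPhi replicate 3 at 234.9 and Hdc-GFPlo replicate 1 at 231.1 CPM. The ordering seen for Ddit3 and Trp53 was shown by 6.02% of all genes tested. Among 6 genes of Mcl1 turnover, 3 had higher and 3 lower values, and Huwe1, the ubiquitin ligase also named Mule, had the smallest p (115 ± 17.5 against 86.2 ± 20.2 CPM, 0.42, SE 0.18, adjusted p = 0.397). The kinase genes Gsk3a (0.17, SE 0.12) and Gsk3b (-0.17, SE 0.15), whose products mark Mcl1 for destruction, had values of opposite sign. Without Hdc-GFPhi replicate 3 they were 0.11 and -0.038, and Gsk3b was -0.31 without Hdc-GFPhi replicate 1.

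**Figure D5:**
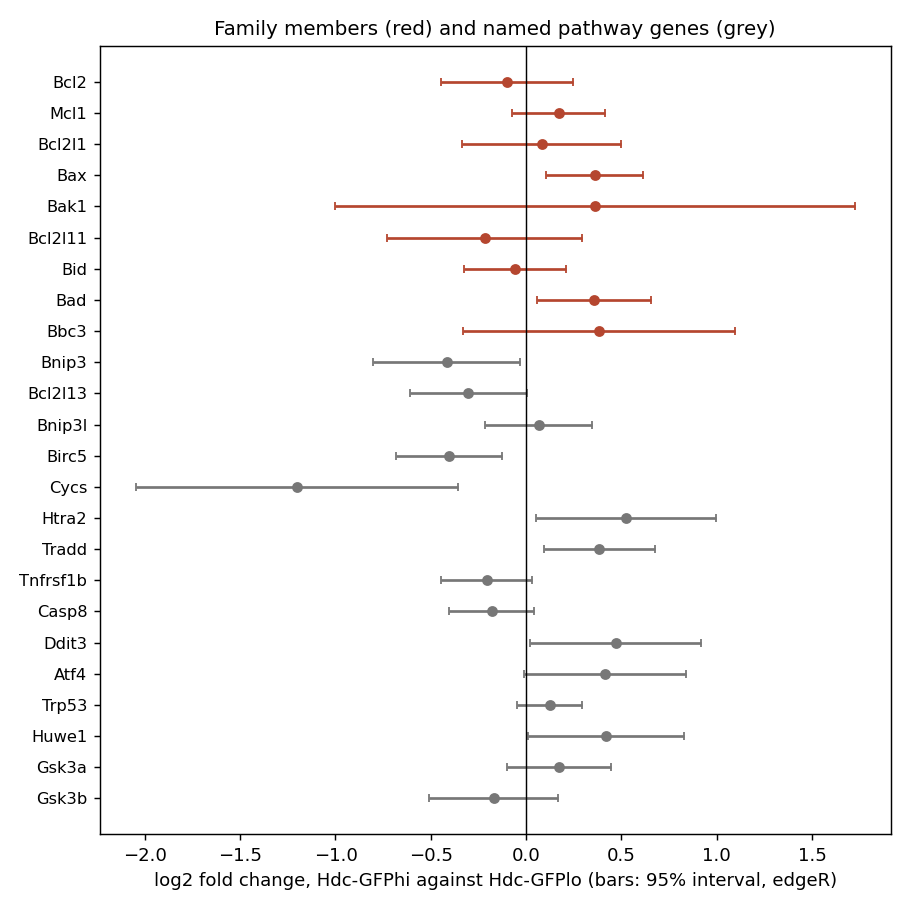
Log2 fold changes of Hdc-GFPhi against Hdc-GFPlo (x axis) with 95% intervals from edgeR for 9 members (red) and the named genes of 5 pathway lists (grey); Pmaip1, with an interval of -3.77 to 3.06, is left out. Among members only the intervals of Bax (0.11 to 0.62) and Bad (0.06 to 0.65) lie above 0, and no gene shown passed the test after adjustment.

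The genes whose levels followed a member most closely over the 7 libraries were sought among the 10468 genes whose mean reached 5 CPM. For Bax these were Snrpd2, a core protein of the spliceosome (Pearson's r of log2 CPM 0.991), Dmap1, a subunit of a histone acetylase complex (0.982), and U2af1l4, a splicing factor (0.981). Their log2 fold changes were 0.24 (SE 0.11), 0.33 (SE 0.11) and 0.32 (SE 0.11). For Mcl1 they were 2210021J22Rik (0.982), Cyth2, an exchange factor for Arf proteins (0.979), and D8Ertd738e (0.973), and for Bcl2 they were D230037D09Rik (0.978), Rad17, a DNA damage checkpoint protein (0.956), and Wdr47 (0.956). Such values are the highest of many over few libraries that share their groups, and they describe these libraries only.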

How the data were processed

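Each library began with RNA of 500 sorted cells, amplified by a SMARTer low input method that keeps no strand and made into Nextera XT libraries, per the labels' protocols. Per the submitters' processing notes, bcl2fastq 1.8.4, TopHat2 (2.0.4 or 2.04), Bowtie2 and HTSeq 0.6.1 were used with build mm9; which annotation and strand setting were used is not given in the sources. The authors deposited raw read counts per gene, 1 column per library, which were matched to samples by library code. No molecular identifiers are mentioned, so floors (3 counts) cover counting error only.

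With R 4.3.3 and edgeR 4.0.16, the table was filtered by filterByExpr at a minimum count of 10, scaled by TMM and tested with the robust quasi-likelihood F test on group alone, adjusted by Benjamini-Hochberg over 12917 genes. The common biological coefficient of variation was 35.3%. Each SE is the log2 fold change over the root of its F statistic. Log2 CPM for likeness used a pseudocount of 2. The edgeR step was tested on simulated data first. Alternatives were other scalings and filters, DESeq2 1.42.0, limma 3.58.1 (voom with quality weights), no robust setting, a replicate block and leaving out libraries. Named pathway genes are the 3 with the smallest p of each list, and genes of likeness the 3 with the highest r for Bcl2, Mcl1 and the member with the smallest p. Kit, Mecom, Hlf, Ctnnal1, Pf4, Prg2, Il2rb, Ncr1, Gzma, Cd3e, Elane, Ctsg, Mmp8, Hba-a1, Hbb-b1 and genes at 0 were named after their values were seen. The members and lists were chosen with earlier results of these data known. Promoters come from RefSeq (GRCm38.p6) and match 9 members by symbol, and lengths from GENCODE M21; both serve for sequence and length only, since the counts carry no coordinates. Pairs of libraries of a group differed by more than counting noise (chi-square per degree of freedom 25.2 to 91.6), so each was kept as 1 replicate.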

Additional observations from a re-analysis of the deposited data

Results flagged for a closer look

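Bax in Hdc-GFPlo replicate 3 stood apart from the other libraries of its group, at 53.0 CPM against 46.8 to 47.2 CPM. The gap was 0.924 of the group's range, above Dixon's 95% limit for 4 values. Chance flags about 1 in 20 groups, and 25 genes were looked at in this way. Without this library the log2 fold change of Bax is within the range of 0.32 to 0.41 given above.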

How the results depend on the processing

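All 10 members stayed short of the adjusted threshold under every alternative that gave them a value, and Bak1, Bbc3 and Pmaip1 got no adjusted p from DESeq2. Bax, Bad, Bbc3, Bak1, Mcl1 and Bcl2l11 kept their direction throughout, with log2 fold changes of 0.32 to 0.41 for Bax and 0.32 to 0.40 for Bad. Over the fits that leave out 1 library, ranges that crossed 0 were -0.19 to 0.019 for Bcl2, -0.067 to 0.24 for Bcl2l1, -0.14 to 0.0095 for Bid, -1.08 to 0.23 for Pmaip1 and -0.023 to 0.18 for Bnip3l; the cause was not tested. DESeq2 called 344 genes where edgeR called 0 in every fit. Genes at an unadjusted p under 0.05 numbered 997 to 1884 over those fits, the lowest without Hdc-GFPhi replicate 1, and members 1 to 2: it was 1 without Hdc-GFPhi replicate 1 or 3 or Hdc-GFPlo replicate 2 or 3. With library totals as the only scaling, 826 genes were higher and 768 lower at that p, against 635 and 944. The replicate numbers pair no samples by the labels, and same-numbered libraries did not deviate together (r of -0.06, -0.01 and -0.14 over genes). With a replicate block, which drops Hdc-GFPlo replicate 4, Bcl2 was at 0.025 and 0 genes were called. Bak1 was counted only 27 to 46 times per library, and Pmaip1 was at 0 in Hdc-GFPhi replicate 1 and Hdc-GFPlo replicate 4. The size of the change in Bbc3 depended on single libraries.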
